A study of Arabidopsis thaliana with 12 samples.

Results

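The genes described here serve protein folding and N-glycosylation in the endoplasmic reticulum (ER) of Arabidopsis thaliana. They are 31 genes, chosen by their AGI codes (the locus codes of the Arabidopsis genome) for the function of their products: HSP70 and HSP90 chaperones with their co-chaperones, lectin chaperones, disulfide-forming enzymes, translocon subunits, subunits of the oligosaccharyltransferase, a small GTPase of ER export, and regulators of the ER stress response. The choice was made with earlier results of these data known. Counts of members set beside shares of all tested genes therefore describe the set and do not test it. All 31 were among the 24228 genes of the deposited table, and all 31 were among the 19652 genes with enough counts to be tested. Secreted and membrane proteins enter the ER through the SEC61 translocon, receive N-glycans from the oligosaccharyltransferase, and fold with the help of the chaperone BIP, the lectin chaperones calreticulin and calnexin, and protein disulfide isomerases. When unfolded proteins accumulate, the sensor IRE1 splices BZIP60 mRNA and the membrane-held factor BZIP28 is released by proteolysis, and both factors switch on chaperone genes. In Arabidopsis leaves this machinery also makes immune receptors and secreted defence proteins, and loss of several of its genes is known to impair the receptor EFR or the secretion of PR1.

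The study measured RNA in rosette leaves of 2 genotypes, each given 2'cADPR or water, with 3 libraries in each of the 4 groups: pad4 with 2'cADPR, pad4 with water, wild type (Col-0) with 2'cADPR and wild type with water. TIR-domain immune proteins produce 2'cADPR, a variant of cyclic ADP-ribose, and PAD4 acts with EDS1 downstream of them; the pad4 line is labelled as a knockout. The comparisons ask how leaves respond to 2'cADPR and whether that response needs PAD4. The sources used here give no dose, time after treatment, plant age or allele. They do not say that the 3 libraries of a group came from separate plants. The p-values thus weigh differences only against the scatter between these libraries, which may be technical scatter.

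Each library held 35816755 to 44436989 counts, and within a group the libraries ranked the genes alike (Spearman's rho across genes of 0.992 to 0.996). PAD4 itself lay between 2.52 and 5.51 CPM (counts per 1000000) in the 6 pad4 libraries, against 63.9 to 590 CPM in the 6 wild type libraries (difference of -5.60 on a log2 scale with 0.5 CPM added; exact two-sided permutation test, p = 0.00216, the smallest that 924 splits can give). The wild type libraries had 548, 590 and 518 CPM of PAD4 after 2'cADPR and 75.0, 63.9 and 66.8 CPM after water. The difference of -5.60 pools both treatments. The lowest count of any member in any library was 60, for BIP3, and the highest was 118941, for SHD.

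Together the 31 genes took 0.383% ± 0.0163 of all counts in pad4 leaves after 2'cADPR, 0.359% ± 0.0149 in pad4 leaves after water, 1.80% ± 0.0846 in wild type leaves after 2'cADPR and 0.744% ± 0.115 in wild type leaves after water (SD, n = 3 each). The share was therefore highest in treated wild type leaves and lowest in pad4 leaves, whichever treatment these had received. The most abundant member per length was SHD, the ER form of HSP90, with 173 ± 6.76 FPKM (fragments per kilobase of gene and 1000000 counted) in pad4 leaves after 2'cADPR, 162 ± 9.36 FPKM in pad4 leaves after water, 831 ± 44.6 FPKM in wild type leaves after 2'cADPR and 385 ± 75.7 FPKM in wild type leaves after water. CNX1 and BIP1 came next by their mean FPKM over all libraries, and IRE1B was the least abundant.

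**Figure D1:**
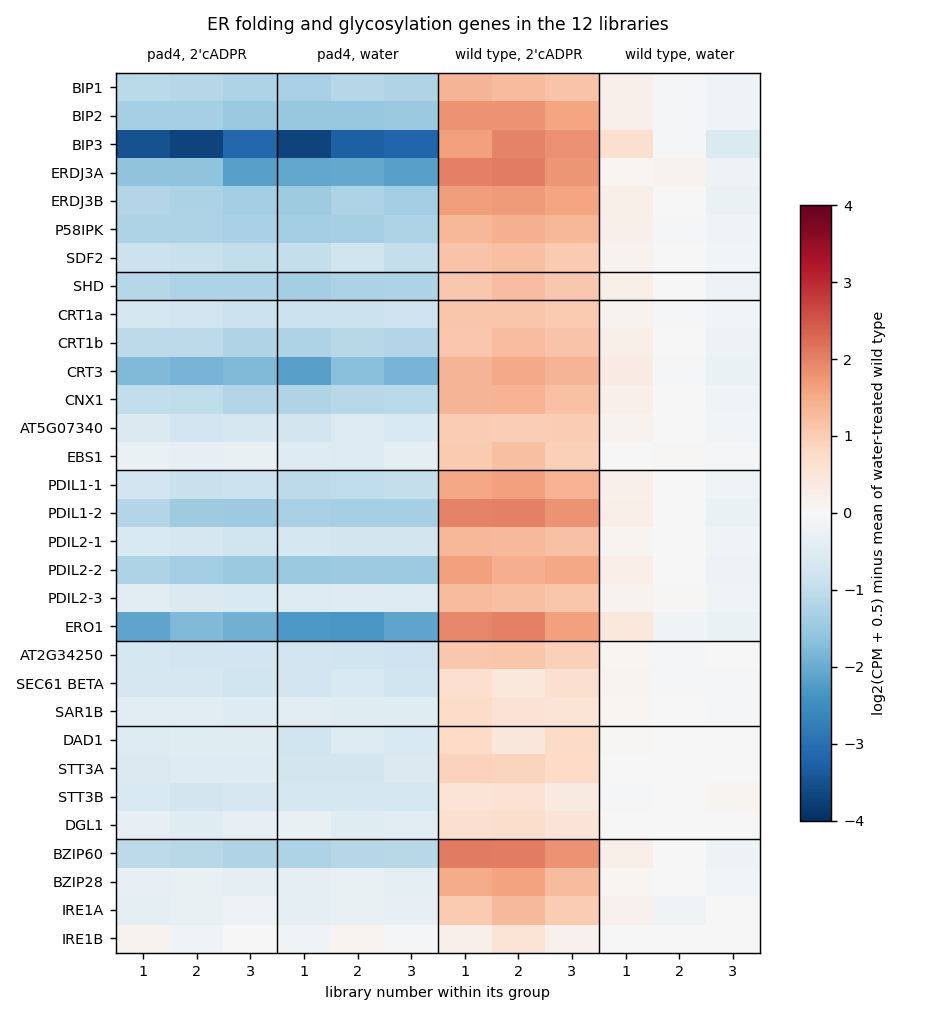
The level of each of the 31 genes (rows, grouped by role) in each of the 12 libraries (columns, 3 per group) is plotted as log2(CPM + 0.5) minus the mean of the water-treated wild type libraries. Treated wild type libraries lie above that mean for all 31 genes, and pad4 libraries lie below it for nearly all, with BIP3 the furthest down and IRE1B close to 0.

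In wild type leaves, 2'cADPR raised the whole set. All 31 genes rose after 2'cADPR against water (edgeR's quasi-likelihood test with Benjamini-Hochberg adjustment over the 19652 genes tested, adjusted p between 3.65e-10 and 0.0156), where 34.6% of all tested genes rose. Of the 31, 24 rose at least 2-fold, against 12.8% of all tested genes, and in all 31 the lowest treated library stood above the highest water library, against 36.0% of all tested genes. The median log2 difference was 1.2 over the 31 genes and -0.015 over all tested genes. The rise ran from 0.32 for IRE1B to 1.97 for BZIP60 and ERDJ3A.

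BIP is the HSP70 chaperone of the ER lumen, encoded in Arabidopsis by the closely similar genes BIP1 (AT5G28540) and BIP2 (AT5G42020) and by BIP3 (AT1G09080), which is known to be induced by ER stress. BIP2, at chr5:16807342-16810693 on the minus strand of TAIR10, had 2362, 2339.6 and 2026 CPM in wild type leaves after 2'cADPR, against 776, 663 and 610.1 CPM in wild type leaves after water (3.28-fold; log2 1.71 ± 0.0948 SE, adjusted p = 6.00e-10). BIP1 had 2406, 2281 and 2089.7 CPM in wild type leaves after 2'cADPR, against 1080.5, 921 and 849 CPM in wild type leaves after water (2.38-fold; log2 1.25 ± 0.0932 SE, adjusted p = 1.37e-08). In both genes every treated library stood far above every water library. BIP3 had 76.8, 97.6 and 88.2 CPM in wild type leaves after 2'cADPR, against 38.1, 23.6 and 16 CPM in wild type leaves after water (3.39-fold; log2 1.76 ± 0.231 SE, adjusted p = 6.73e-06). It was the most variable member, with the first water library of wild type the highest of its group and the treated libraries still well clear of it. The coding sequences of BIP1 and BIP2 are 95.8% identical. Their longest transcripts, untranslated parts included, share 22.9% and 24.8% of their 50-base windows, so reads may have been split or lost between them. BIP3 shares no such window with either.

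The partners of BIP rose with it. ERDJ3A (AT3G08970), ERDJ3B (AT3G62600) and P58IPK (AT5G03160) are J-domain proteins that stimulate its ATPase, and SDF2 (AT2G25110) binds ERDJ3B in a complex needed for EFR. ERDJ3A rose by 1.97 on the log2 scale, ERDJ3B by 1.65, P58IPK by 1.36 and SDF2 by 1.13 (adjusted p of at most 5.20e-09). ERDJ3B reached 654 ± 25.9 CPM in wild type leaves after 2'cADPR, against 209 ± 35 CPM in wild type leaves after water (SD, n = 3 each). All 7 genes of the BIP system rose at least 2-fold, with a median of 1.65. ERDJ3A and P58IPK each overlap a gene on the other strand (AT3G08960 and AT5G03170), and the sources used here do not say whether the authors' counting used strand.

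SHD (AT4G24190), the ER-resident HSP90 known for folding CLAVATA receptors, had 2472, 2763 and 2492 CPM in wild type leaves after 2'cADPR, against 1388, 1171 and 999 CPM in wild type leaves after water (2.17-fold; log2 1.12 ± 0.102 SE, adjusted p = 1.29e-07). The 2 sets of libraries did not overlap.

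Lectin chaperones hold glycoproteins through their trimmed N-glycans until folding is complete, and UDP-glucose:glycoprotein glucosyltransferase, encoded by EBS1 (AT1G71220), marks misfolded ones for another round. CRT1a (AT1G56340) is a calreticulin, and had 745, 755 and 727 CPM in wild type leaves after 2'cADPR, against 384, 340.5 and 323 CPM in wild type leaves after water (2.13-fold; log2 1.09 ± 0.0722 SE, adjusted p = 3.87e-09). Its 3 treated libraries lay in a narrow band, well above the water libraries. CRT3 (AT1G08450), the plant-specific calreticulin needed for EFR, rose by 1.39 on the log2 scale, to 1068 ± 76.5 CPM in wild type leaves after 2'cADPR against 408 ± 88.0 CPM in wild type leaves after water (SD, n = 3 each). CNX1 (AT5G61790), a calnexin, rose by 1.30, CRT1b (AT1G09210) by 1.13, EBS1 by 1.07 and the calnexin-type gene AT5G07340 by 1.0. All 6 genes of the group thus rose at least 2-fold, with a median of 1.11. AT5G07340 passed by little, at 2.003-fold, and its log2 difference ran from 0.94 to 1.10 over the left-out libraries.

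Disulfide bonds in the ER are made by protein disulfide isomerases, which ERO1 (AT1G72280) reoxidises. The isomerase gene PDIL1-2 (AT1G77510) had 738, 756 and 642 CPM in wild type leaves after 2'cADPR, against 222, 184 and 155 CPM in wild type leaves after water (3.81-fold; log2 1.93 ± 0.116 SE, adjusted p = 1.46e-09). The lowest treated library was thus far above the highest water library. PDIL1-1 (AT1G21750) rose by 1.52 on the log2 scale, PDIL2-2 (AT1G04980) by 1.54, PDIL2-1 (AT2G47470) by 1.26 and PDIL2-3 (AT2G32920) by 1.2. ERO1 reached 58.4 ± 7.61 CPM in wild type leaves after 2'cADPR, against 16.1 ± 4.40 CPM in wild type leaves after water (SD, n = 3 each; log2 1.86 ± 0.157 SE, adjusted p = 5.46e-08). All 6 genes rose at least 2-fold (median 1.53), and PDIL2-1 overlaps AT2G47480 on the other strand.

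The machines of entry and glycosylation had the smallest median rises of the roles with more than 1 gene. AT2G34250 encodes a SEC61 alpha-type subunit, which forms the translocon channel, and had 919.8, 923 and 828 CPM in wild type leaves after 2'cADPR, against 454, 412 and 428 CPM in wild type leaves after water (2.07-fold; log2 1.05 ± 0.0674 SE, adjusted p = 2.84e-09). SEC61 BETA (AT2G45070), a small translocon subunit, rose by 0.57 on the log2 scale, and SAR1B (AT1G56330), the GTPase that starts COPII vesicles, by 0.63. Among the oligosaccharyltransferase genes, STT3A (AT5G19690), a catalytic subunit needed for EFR, had 318, 309 and 289.5 CPM in wild type leaves after 2'cADPR, against 167, 168 and 165 CPM in wild type leaves after water (1.83-fold; log2 0.87 ± 0.0630 SE, adjusted p = 9.75e-09). The alternative catalytic subunit STT3B (AT1G34130) rose by 0.50, and the accessory subunits DAD1 (AT1G32210) and DGL1 (AT5G66680) by 0.68 and 0.62. All 4 rose, none of them 2-fold (median 0.65), and of the 3 translocon and export genes only AT2G34250 passed 2-fold (median 0.63). DAD1 overlaps AT1G32220 on the other strand.

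The regulators differed most among themselves. BZIP60 (AT1G42990) encodes the factor activated by IRE1 splicing, and had 330.1, 320.3 and 272 CPM in wild type leaves after 2'cADPR, against 91.8, 76.5 and 67.3 CPM in wild type leaves after water (3.92-fold; log2 1.97 ± 0.103 SE, adjusted p = 3.65e-10). BZIP28 (AT3G10800), the factor released from the membrane by proteolysis, had 96.6, 106 and 81.5 CPM in wild type leaves after 2'cADPR, against 36.3, 34.3 and 31.5 CPM in wild type leaves after water (2.78-fold; log2 1.47 ± 0.0863 SE, adjusted p = 1.08e-09). Both were clear of their water libraries. IRE1A (AT2G17520), a kinase and RNase that senses unfolded proteins, had 74.6, 88.0 and 71.9 CPM in wild type leaves after 2'cADPR, against 40.3, 31.7 and 35.2 CPM in wild type leaves after water (2.19-fold; log2 1.13 ± 0.0928 SE, adjusted p = 3.96e-08). Its paralog IRE1B (AT5G24360) had 26.2, 32.8 and 25.2 CPM in wild type leaves after 2'cADPR, against 22.1, 22.8 and 22.5 CPM in wild type leaves after water (1.25-fold; log2 0.32 ± 0.107 SE, adjusted p = 0.0156). The rise of IRE1B was the smallest of the set and rested on the second treated library: without it the log2 difference was 0.20 (adjusted p = 0.0817), and under upper quartile scaling it was 0.18 (adjusted p = 0.137). Counts per gene do not show the splicing of BZIP60 mRNA or the proteolysis of BZIP28.

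**Figure D2:**
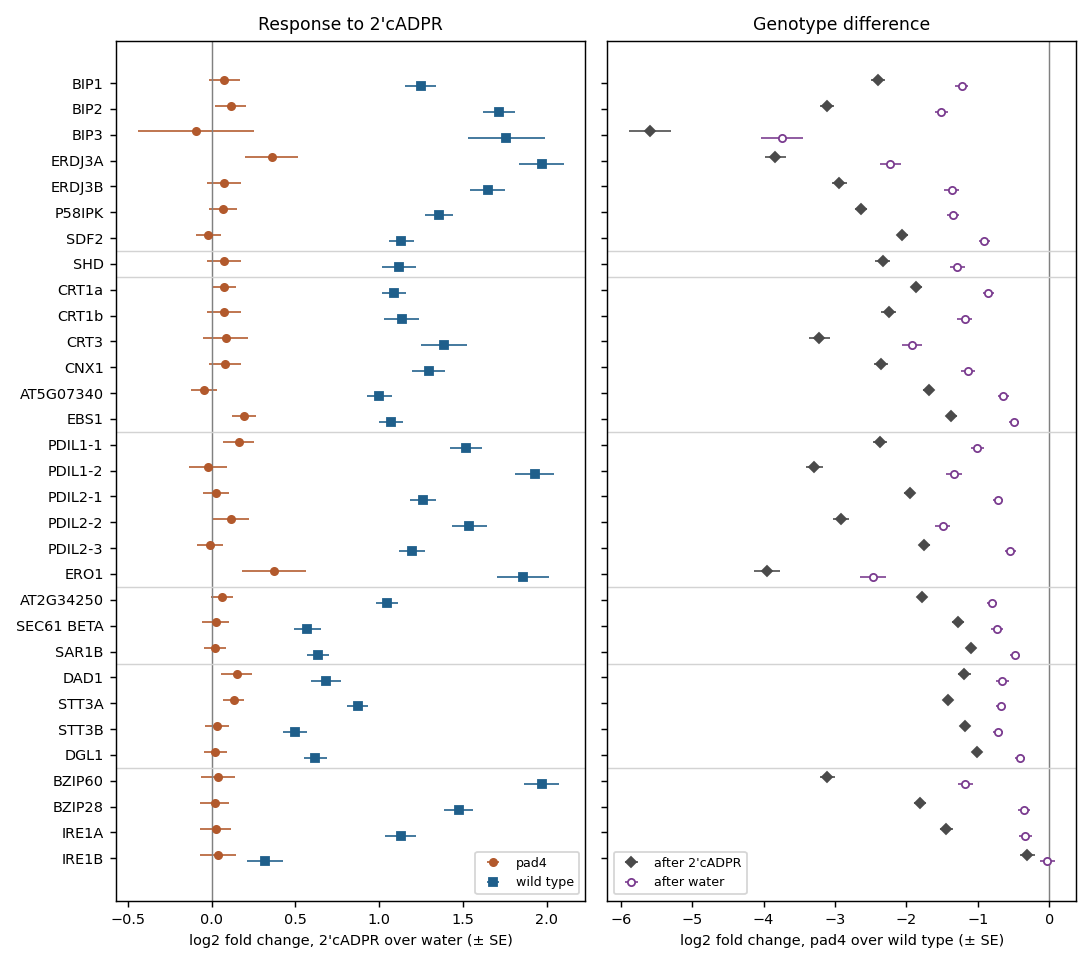
Left, the log2 fold change of each gene for 2'cADPR over water, with its standard error, in pad4 (circles) and wild type (squares); right, the log2 fold change of pad4 over wild type after 2'cADPR (filled diamonds) and after water (open circles). The wild type values run from 0.32 to 1.97 and the pad4 values from -0.09 to 0.37, and on the right the values after 2'cADPR lie furthest from 0.

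Promoters of known ER stress genes carry short elements bound by BZIP60, BZIP28 or their partners. The 300 bases before the annotated start were therefore searched in 22593 genes, on both strands. Windows were not cut at neighbouring genes, so some overlap a neighbour, such as those of SHD, CRT1a and EBS1. The ER stress response element ERSE (CCAAT and CCACG 9 bases apart) was found before 4 of the 31 genes (12.9%, against 0.385% of all promoters): P58IPK, SHD, EBS1 and PDIL1-2. The unfolded protein response element UPRE-I in its form TGACGTGG was found before 5 (16.1%, against 1.54%): SHD, CRT1a, EBS1, PDIL1-1 and SAR1B. ERSE-II (ATTGG and CCACG 1 base apart) and the UPRE-I form TGACGTGA were found before none of the 31 (0.0797% and 0.633% of all promoters). The shared core CCACG, which lies inside ERSE, ERSE-II and the first UPRE-I form, stood before 12 (38.7%, against 17.8%), and UPRE-III (TCATCG) before 4 (12.9%, against 7.75%).

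The element TL1 (GAAGAAGAA) is bound by the heat-shock-type factor TBF1 and known from NPR1-dependent secretory genes. It stood before BIP2, CNX1 and EBS1 (9.68%, against 5.16% of all promoters). The windows of CNX1 and EBS1 overlap neighbouring genes (AT5G61800 and AT1G71210), and whether the matches lie inside those genes was not tested. A W-box, the element of WRKY factors, stood before 8 of the 31 genes in the form TTGACC or TTGACT (25.8%, against 32.3%). The form TTGACC was before 5 (16.1%, against 14.0%) and the form TTGACT before 6 (19.4%, against 21.8%). The 7 genes with an ERSE or UPRE-I had a median log2 response of 1.12 in wild type (range 0.63 to 1.93), and the 24 without had 1.22 (range 0.32 to 1.97). Such matches are letters in a window and show no binding.

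Windows of 4 genes show the elements in place, from the TAIR10 assembly in RefSeq, read 5′ to 3′ on the gene's strand and ending at the base before the annotated start. They were picked with the responses known, as 2 promoters with ERSE (P58IPK, chr5:749801-750100, plus strand; PDIL1-2, chr1:29126348-29126647, plus strand), 1 with UPRE-I before a gene with a smaller rise (SAR1B, chr1:21088555-21088854, minus strand) and 1 with TL1 before a gene with a larger rise (BIP2, chr5:16810694-16810993, minus strand). Capitals mark the searched letters: the 2 arms of ERSE, UPRE-I, UPRE-III, the core CCACG, TL1 and W-boxes, on either strand.
P58IPK: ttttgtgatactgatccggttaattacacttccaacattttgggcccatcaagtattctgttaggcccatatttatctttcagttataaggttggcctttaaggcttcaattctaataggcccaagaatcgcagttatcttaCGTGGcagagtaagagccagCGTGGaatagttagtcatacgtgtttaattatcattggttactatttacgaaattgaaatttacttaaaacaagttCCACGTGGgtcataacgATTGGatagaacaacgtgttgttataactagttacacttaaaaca
PDIL1-2: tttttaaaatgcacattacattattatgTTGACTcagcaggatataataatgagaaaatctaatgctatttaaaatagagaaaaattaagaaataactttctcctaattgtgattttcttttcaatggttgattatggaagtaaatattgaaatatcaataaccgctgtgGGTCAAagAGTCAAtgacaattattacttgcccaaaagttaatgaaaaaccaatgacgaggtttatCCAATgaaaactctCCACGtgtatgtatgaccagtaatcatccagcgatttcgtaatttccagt
SAR1B: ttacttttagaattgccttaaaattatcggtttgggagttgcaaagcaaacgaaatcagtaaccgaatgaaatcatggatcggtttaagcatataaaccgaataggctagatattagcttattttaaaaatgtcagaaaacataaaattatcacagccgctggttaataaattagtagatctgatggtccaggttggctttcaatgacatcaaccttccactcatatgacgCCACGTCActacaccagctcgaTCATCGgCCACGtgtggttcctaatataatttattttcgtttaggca
BIP2: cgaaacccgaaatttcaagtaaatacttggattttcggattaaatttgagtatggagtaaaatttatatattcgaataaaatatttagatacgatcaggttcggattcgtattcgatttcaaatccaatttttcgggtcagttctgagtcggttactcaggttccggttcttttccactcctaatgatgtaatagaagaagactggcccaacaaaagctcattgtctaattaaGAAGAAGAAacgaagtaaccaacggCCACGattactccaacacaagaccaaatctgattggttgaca
In P58IPK the ERSE runs on the opposite strand from 59 to 41 bases before the start, with a second core partly inside it. In PDIL1-2 it runs along the gene's own strand from 64 to 46 bases before the start, with 3 W-boxes further upstream. SAR1B, with UPRE-I at 69 to 62 bases before the start, rose 1.55-fold in wild type, against 3.81-fold for PDIL1-2.

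**Figure D3:**
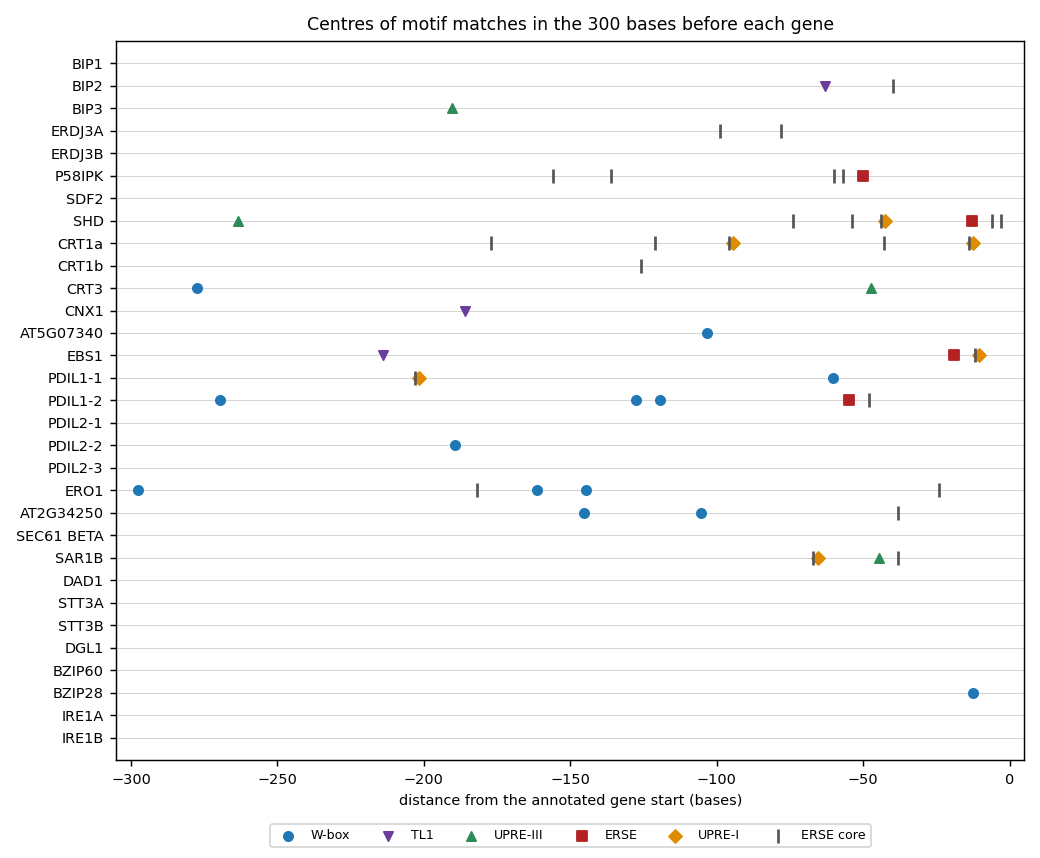
Centres of motif matches on either strand in the 300 bases before each of the 31 genes, by distance from the annotated start (bases) and type of element. ERSE and UPRE-I lie within about 100 bases of the start in 6 of the 7 genes that carry one, PDIL1-1 being the exception.

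In pad4 leaves no member was called for 2'cADPR against water, where 1 of all 19652 tested genes was (0.00509%). The lowest adjusted p among the 31 was 0.886 in edgeR, 2 had an unadjusted p under 0.05 there, 4 in DESeq2 and 2 in limma-voom, and none was called by any of the 3. Log2 differences ran from -0.09 for BIP3 to 0.37 for ERO1, with a median of 0.069 over the 31 genes and -0.004 over all tested genes. Treated and water libraries did not overlap for 5 members (EBS1, PDIL1-1, ERO1, AT2G34250 and DAD1), against 13.0% of all tested genes. BIP2 had 269, 270.2 and 241 CPM in pad4 leaves after 2'cADPR and 236, 239 and 245 CPM in pad4 leaves after water (log2 0.12 ± 0.0926 SE, adjusted p = 0.985). BZIP60 had 37.4, 36.0 and 33.7 CPM in pad4 leaves after 2'cADPR and 33.2, 35.3 and 35.7 CPM in pad4 leaves after water (log2 0.04 ± 0.103 SE, adjusted p = 0.999). PDIL1-2 had 81.9, 69.3 and 67.3 CPM in pad4 leaves after 2'cADPR and 75.4, 72.6 and 74.0 CPM in pad4 leaves after water (log2 -0.02 ± 0.114 SE, adjusted p = 1.0). In each of these 3 genes the 2 sets of pad4 libraries overlapped. ERO1, whose counts were low in pad4, had 3.29, 4.25 and 3.77 CPM in pad4 leaves after 2'cADPR and 2.79, 2.71 and 3.23 CPM in pad4 leaves after water (log2 0.37 ± 0.192 SE, adjusted p = 0.974). These p-values do not show that nothing changed in pad4.

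No change was called either for the other members with a value given in every library. SHD had 538, 501 and 497 CPM in pad4 leaves after 2'cADPR and 462, 494 and 502 CPM in pad4 leaves after water. BIP1 had 452, 430.1 and 403 CPM in pad4 leaves after 2'cADPR and 386, 425 and 409.6 CPM in pad4 leaves after water. CRT1a had 213, 207 and 193 CPM in pad4 leaves after 2'cADPR and 190.1, 194 and 197 CPM in pad4 leaves after water. For these 3 chaperone genes the highest value came from a treated library, but the ranges overlapped. AT2G34250 had 265, 256 and 254 CPM in pad4 leaves after 2'cADPR and 254, 247 and 243 CPM in pad4 leaves after water, without overlap although the lowest treated library lay next to the highest water library. STT3A had 111, 116 and 116 CPM in pad4 leaves after 2'cADPR and 99.9, 101 and 112 CPM in pad4 leaves after water, with treated libraries and the third water library close together. BZIP28 had 26.8, 27.4 and 26.6 CPM in pad4 leaves after 2'cADPR and 26.1, 27.4 and 26.4 CPM in pad4 leaves after water, and IRE1A had 27.4, 28.7 and 30.4 CPM in pad4 leaves after 2'cADPR and 27.9, 29.2 and 27.9 CPM in pad4 leaves after water. For both regulators all 6 pad4 libraries lay in a narrow band.

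The response to 2'cADPR was smaller in pad4 than in wild type for 30 of the 31 genes (interaction term, adjusted p under 0.05), against 28.2% of all tested genes, and by at least 2-fold for 22, against 10.7%. The median difference in response, pad4 minus wild type, was -1.17 on the log2 scale over the 31 genes and 0.010 over all tested genes. PDIL1-2 had the largest difference (log2 -1.95 ± 0.162 SE, adjusted p = 1.22e-07), followed by BZIP60 (log2 -1.93 ± 0.145 SE, adjusted p = 4.72e-08). The called differences smallest in size were those of STT3B (-0.47), DAD1 (-0.53) and SEC61 BETA (-0.55). For IRE1B the difference in response was not called (log2 -0.28 ± 0.152 SE, adjusted p = 0.126). It was called without the third treated library of wild type (-0.37, adjusted p = 0.0494).

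After water alone, pad4 leaves already held less of these transcripts than wild type leaves. In pad4, 30 of the 31 genes were lower (adjusted p under 0.05), against 17.5% of all tested genes, and 15 were lower at least 2-fold, against 6.21%. In 30 of the 31 every pad4 library lay below every wild type library, against 23.5% of all tested genes. The median difference was -0.91 over the 31 genes and 0.002 over all tested genes. Upper quartile scaling left 30 genes lower, while the share of higher genes among all calls was 55.0% with it and 40.0% with TMM scaling.

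BIP3 differed most between the genotypes. It had 1.41, 2.09 and 2.28 CPM in pad4 leaves after water, against 38.1, 23.6 and 16 CPM in wild type leaves after water, and was 13.4-fold lower in pad4 (log2 -3.74 ± 0.288 SE, adjusted p = 1.33e-07). ERO1 followed with 2.91 ± 0.282 CPM in pad4 leaves after water against 16.1 ± 4.40 CPM in wild type leaves after water (SD, n = 3 each), 5.53-fold lower in pad4. ERDJ3A was 4.68-fold lower, CRT3 3.77-fold, BIP2 2.85-fold and SHD 2.44-fold. All of these chaperone-system genes were among those that rose at least 2-fold after 2'cADPR in wild type. SHD had 462, 494 and 502 CPM in pad4 leaves after water, against 1388, 1171 and 999 CPM in wild type leaves after water. BIP1 had 386, 425 and 409.6 CPM in pad4 leaves after water, against 1080.5, 921 and 849 CPM in wild type leaves after water. For both, the highest pad4 library stood well below the lowest wild type library.

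Among the chaperone and enzyme genes with smaller genotype differences after water, CRT1a was lower in pad4 by a log2 difference of -0.85, PDIL2-3 by -0.54, EBS1 by -0.49, SAR1B by -0.48 and DGL1 by -0.41. AT2G34250 had 254, 247 and 243 CPM in pad4 leaves after water, against 454, 412 and 428 CPM in wild type leaves after water (log2 -0.80 ± 0.0673 SE, adjusted p = 3.33e-07). STT3A had 99.9, 101 and 112 CPM in pad4 leaves after water, against 167, 168 and 165 CPM in wild type leaves after water (log2 -0.68 ± 0.0632 SE, adjusted p = 9.47e-07). These 2 genes differed by less than BIP but without overlap between genotypes.

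The regulators also differed among themselves after water, from -1.18 to -0.02, a narrower range than that of the HSP70 group (-3.74 to -0.91). BZIP60 was 2.26-fold lower in pad4 (log2 -1.18 ± 0.103 SE, adjusted p = 5.14e-07). BZIP28 had 26.1, 27.4 and 26.4 CPM in pad4 leaves after water, against 36.3, 34.3 and 31.5 CPM in wild type leaves after water (log2 -0.35 ± 0.0868 SE, adjusted p = 0.00619). Both were lower in every pad4 library, BZIP28 by much less. IRE1A had 27.9, 29.2 and 27.9 CPM in pad4 leaves after water, against 40.3, 31.7 and 35.2 CPM in wild type leaves after water (log2 -0.33 ± 0.0935 SE, adjusted p = 0.0139), a difference no longer called without the first water library of wild type (-0.23, adjusted p = 0.0908). IRE1B had 20.4, 24.3 and 21.6 CPM in pad4 leaves after water, against 22.1, 22.8 and 22.5 CPM in wild type leaves after water, and was not called (log2 -0.02 ± 0.108 SE, adjusted p = 0.895).

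**Figure D4:**
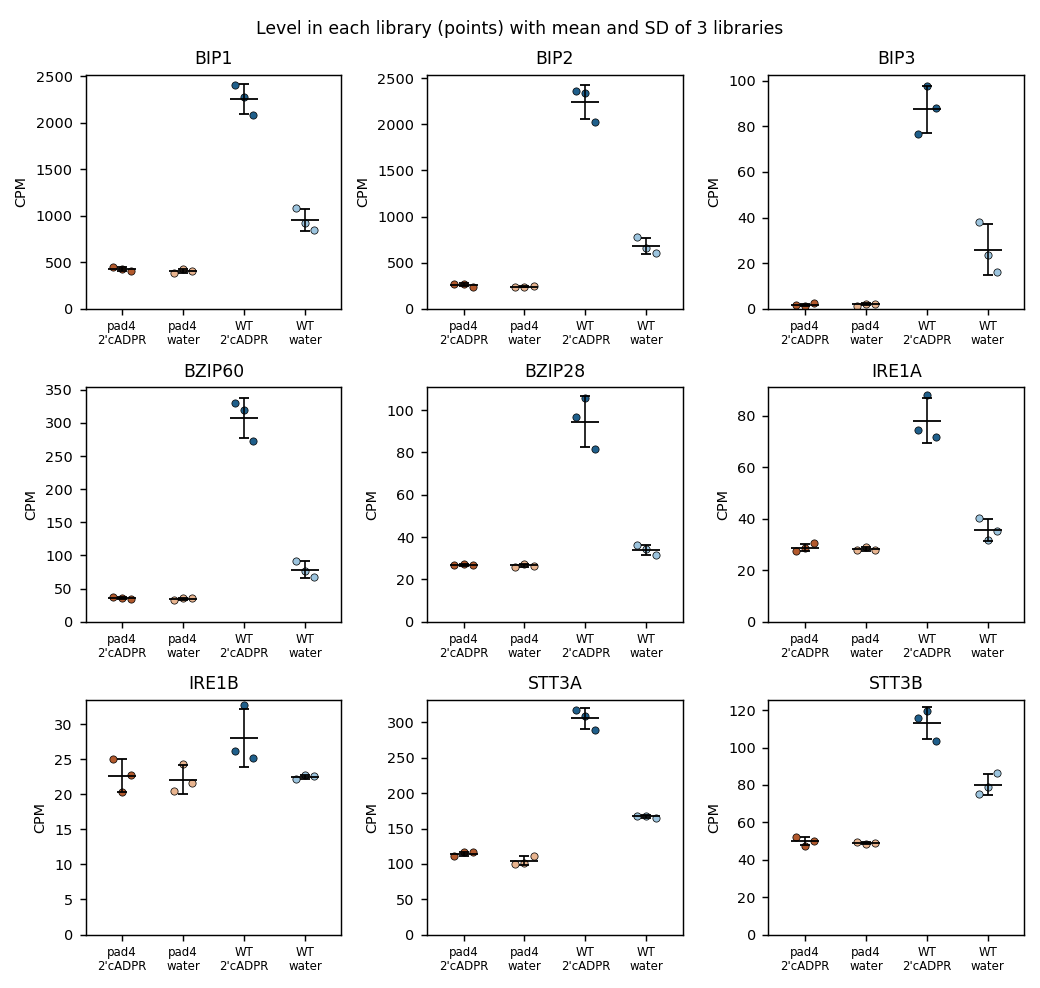
CPM in each library (points), with the mean and SD of 3 libraries (bars), for the BIP genes, the regulators and the 2 STT3 genes; each panel has its own vertical axis from 0. The pad4 groups sit together and low in every panel but that of IRE1B, where all 12 libraries lie between 20.3 and 32.8 CPM.

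After 2'cADPR the genotypes stood furthest apart. All 31 genes were lower in pad4 (against 36.8% of all tested genes), 30 at least 2-fold (against 18.5%), and all 31 without overlap of libraries (against 38.3%). The median difference was -2.06 over the 31 genes and 0.021 over all tested genes. BIP3 had 1.71, 1.39 and 2.33 CPM in pad4 leaves after 2'cADPR, against 76.8, 97.6 and 88.2 CPM in wild type leaves after 2'cADPR, 48.3-fold lower in pad4 (log2 -5.60 ± 0.296 SE, adjusted p = 1.56e-10). BIP2 was 8.62-fold lower, BZIP60 8.62-fold, PDIL1-2 9.77-fold and ERO1 15.5-fold. The oligosaccharyltransferase genes were closer, from 2.01-fold for DGL1 to 2.68-fold for STT3A. IRE1B had 25.0, 20.3 and 22.7 CPM in pad4 leaves after 2'cADPR, against 26.2, 32.8 and 25.2 CPM in wild type leaves after 2'cADPR, a small difference (log2 -0.31 ± 0.107 SE, adjusted p = 0.0171) lost in 4 of the 21 alternatives tried. This comparison shares its treated wild type libraries with the response in wild type, so the 2 are not independent.

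The proportions of related genes were compared by FPKM, which is per length. By FPKM, BIP2 over BIP1 was 0.618, 0.654 and 0.622 in pad4 leaves after 2'cADPR, 0.637, 0.585 and 0.622 in pad4 leaves after water, 1.02, 1.07 and 1.01 in wild type leaves after 2'cADPR and 0.747, 0.749 and 0.748 in wild type leaves after water. The ratio was thus highest in the 3 treated wild type libraries, and in pad4 every library lay below every wild type library. IRE1A over IRE1B was 1.35 ± 0.174 in pad4 leaves after 2'cADPR, 1.35 ± 0.0886 in pad4 leaves after water, 2.94 ± 0.10 in wild type leaves after 2'cADPR and 1.67 ± 0.226 in wild type leaves after water (SD, n = 3 each). The kinase pair was closest to even in pad4. STT3A over STT3B was 1.75 ± 0.122 in pad4 leaves after 2'cADPR, 1.63 ± 0.106 in pad4 leaves after water, 2.07 ± 0.0859 in wild type leaves after 2'cADPR and 1.6 ± 0.121 in wild type leaves after water. In wild type these 3 ratios did not overlap between treatments (exact two-sided permutation tests, p = 0.1 for each and 0.2 adjusted over 12 comparisons of ratios, where 0.1 is the smallest p that 3 libraries against 3 allow). BIP3 made up 0.348% ± 0.111 of the summed BIP FPKM in pad4 leaves after 2'cADPR, 0.388% ± 0.0826 in pad4 leaves after water, 2.49% ± 0.373 in wild type leaves after 2'cADPR and 1.99% ± 0.604 in wild type leaves after water. That share overlapped between treatments in wild type (exact permutation p = 0.2) and was lower in each pad4 library than in each wild type library.

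Other genes of the same pathways were taken from 8 lists of 66 genes, of which 63 could be tested. In wild type 45 of the 63 rose after 2'cADPR and 7 fell, where 34.6% of all tested genes rose and 34.6% fell. Of the 63, 16 rose at least 2-fold, against 12.8% of all tested genes, and the median log2 difference of the 63 was 0.64. In pad4 none was called. The difference in response, pad4 minus wild type, was negative for 38 of the 63 (28.2% of all tested genes) and positive for 4 (29.4%). The 38 had all risen in wild type. The 4 with a positive difference (PDIL5-3, PSL4, AT1G27520 and AT4G20310, named here after their values were seen) had all fallen there. This is largely built in, because the difference contains the wild type response and no gene of the 63 was called in pad4. After water 31 were lower in pad4 (17.5% of all tested genes) and 4 higher (11.7%).

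The counts by list that follow are for wild type after 2'cADPR and stand beside those same shares of 34.6% risen and 34.6% fallen among all tested genes. Among 9 further disulfide isomerase and ERO genes, 5 rose and 2 fell (median 0.23). PDIL1-3 (AT3G54960) reached 318 ± 21.7 CPM in wild type leaves after 2'cADPR, against 92.4 ± 15.8 CPM in wild type leaves after water (log2 1.78 ± 0.103 SE, adjusted p = 9.24e-10). ERO2 (AT2G38960) rose by 0.69, whereas the isomerase-like genes PDIL5-3 (AT3G20560) and PDIL5-4 (AT4G27080) fell by 0.77 and 0.22 on the log2 scale. Of 12 tested translocon and signal peptidase genes 11 rose and none fell (median 0.94). The SEC61 alpha-type gene AT1G29310 rose by 1.34 and ERDJ2B (AT4G21180), a J-domain partner of the translocon, by 1.53. Of 5 tested further oligosaccharyltransferase genes 3 rose and 1 fell (median 0.71): the subunit genes AT1G61790 and AT2G01720 rose by 0.98 and 0.71, and DAD2 (AT2G35520), a paralog of DAD1, fell by 0.46.

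Of 10 genes that build and trim N-glycans, 5 rose, 2 fell and 3 were not called (median 0.32; 34.6% of all tested genes rose and 34.6% fell). EBS3 (AT1G16900), a mannosyltransferase of glycan assembly, reached 54.4 ± 9.82 CPM in wild type leaves after 2'cADPR, against 13.6 ± 1.69 CPM in wild type leaves after water (log2 2.0 ± 0.126 SE, adjusted p = 2.20e-09). After water it did not pass the test between pad4 and wild type (log2 -0.06 ± 0.127 SE, adjusted p = 0.759). The mannosidase gene MNS3 (AT1G30000) rose by 1.04, and PSL4 (AT5G56360), the glucosidase beta subunit, and ALG12 (AT1G02145), another mannosyltransferase, fell by 0.61 and 0.27. Of 10 genes for ER-associated degradation, which removes misfolded proteins, 7 rose and 1 fell (median 0.94). Hrd1B (AT1G65040), a ubiquitin ligase of this pathway, rose by 1.59 and EBS5 (AT1G18260), its HRD3-type partner, by 0.95, and the mannosidase-like gene AT1G27520 fell by 0.36.

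Among 9 tested further ER stress regulators 6 rose and 1 fell (median 0.64). BI1 (AT5G47120), an ER membrane protein that restrains cell death, reached 605 ± 53.8 CPM in wild type leaves after 2'cADPR, against 143 ± 20.8 CPM in wild type leaves after water (log2 2.08 ± 0.0995 SE, adjusted p = 1.52e-10). The membrane-held factor gene NAC062 (AT3G49530) rose by 1.80, and AT4G20310, which encodes an S2P-type protease, fell by 0.81. All 6 tested COPII coat genes rose (median 0.42), with the SEC31-type gene AT3G63460 at 0.81 and the SAR1-type gene AT3G62560 at 0.47. The 2 regulators of TL1 genes rose as well: TBF1 (AT4G36990, listed as HSF4) reached 168 ± 13.4 CPM in wild type leaves after 2'cADPR, against 31.8 ± 9.84 CPM in wild type leaves after water (log2 2.41 ± 0.173 SE, adjusted p = 9.05e-09), and NPR1 (AT1G64280) rose by 1.03.

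**Figure D5:**
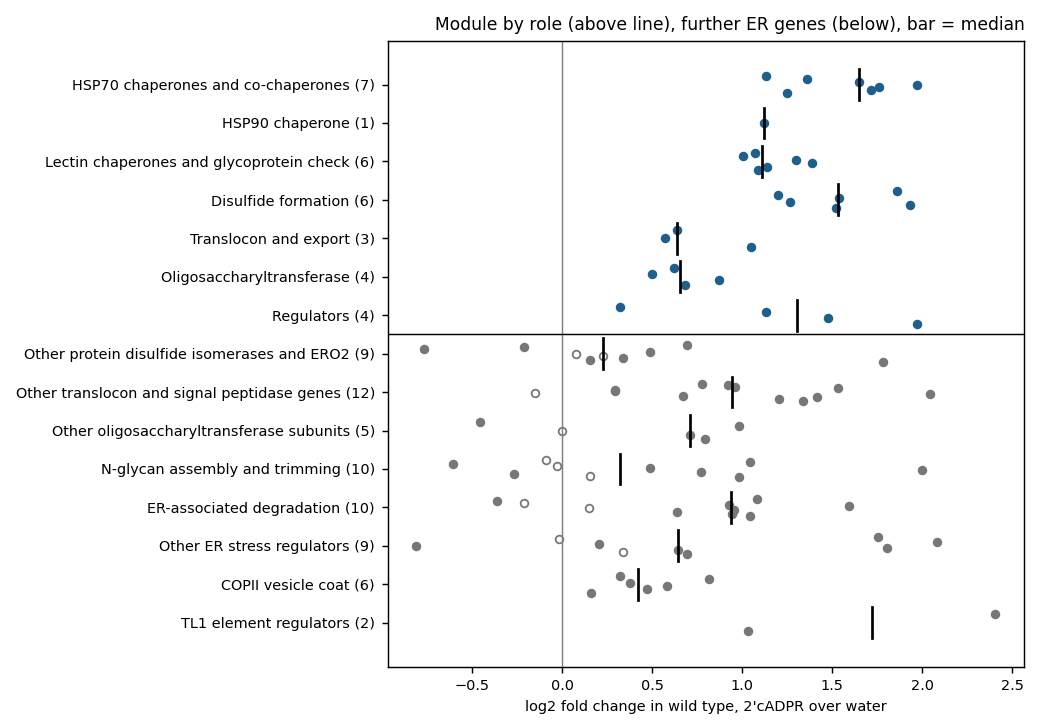
Log2 fold change in wild type for 2'cADPR over water, 1 point per tested gene, for the 31 genes by role (above the line) and for the 63 further genes by list (below); bars are medians, filled points passed the adjusted threshold of 0.05 and open points did not, and the number of genes stands in brackets. The 31 genes all lie to the right of 0, while the further lists reach from -0.81 to 2.41.

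Markers of leaf cell types moved in the same comparison. The summed level of 5 mesophyll markers was 15432 to 17230 CPM in wild type leaves after 2'cADPR and 22199 to 28360 CPM in wild type leaves after water, and 4 of the 5 fell. That of 5 epidermis markers was 576 to 748 CPM in wild type leaves after 2'cADPR and 1482 to 1601 CPM in wild type leaves after water. All 5 fell. Of all tested genes, 34.6% fell and 34.6% rose in this comparison. Of 5 guard cell markers 1 rose and 1 fell, and of 5 vascular markers 2 fell. Of 4 markers of myrosin cells and ER bodies none was called. In pad4 none of these markers was called after 2'cADPR. Between the genotypes after 2'cADPR, 4 of the 5 mesophyll markers and 5 of the 5 epidermis markers were higher in pad4. The marker sums there were 22967 to 24401 CPM and 1362 to 1455 CPM. Of all 19652 tested genes, 7345 were higher in pad4 after 2'cADPR. After water the mesophyll markers summed to 24140 to 25914 CPM in pad4 and none of the 5 was called, and the epidermis markers summed to 1143 to 1481 CPM in pad4 with PDF2 lower there. Also after water, the guard cell markers SLAC1 and FAMA were higher in pad4. Of the markers of myrosin cells and ER bodies, TGG1 was lower and NAI1 higher, as was the flower gene AG. NAI1 was near the floor, at a mean of 0.213 CPM in wild type and 0.911 CPM in pad4 after water. AG was low as well, at 1.32 CPM in wild type and 3.08 CPM in pad4. Of all tested genes, 17.5% were lower and 11.7% higher in pad4 after water. After 2'cADPR, MYB60 of the guard cell markers, SEOR1 of the vascular markers, NAI1 and AG were higher in pad4, and KAT1 and APL were lower. The part of these markers in the differences of the ER genes was not tested. The leaf markers were detected in every group. Of 6 root, flower and seed markers, 4 were among the genes counted, and these summed to at most 3.56 CPM, most of it from AG. The root marker CASP1 was at 0 in 11 of the 12 libraries. In bulk tissue, more cells of a type and more RNA per cell cannot be told apart.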

How the data were processed

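RNA-seq libraries were made from total RNA of rosette leaves with a SMARTER mRNA-seq kit, per the labels' protocols. Reads were processed with fastp, HISAT and HTSeq on TAIR10, per the submitters' processing notes; their versions, settings and use of strand are not stated there. The authors deposited raw counts of reads per gene and FPKM values, which are those counts divided by library total and gene length; 24 of 24 single-sample files equalled the tables. Gene lengths implied by the deposited FPKM matched RefSeq's TAIR10 exons for 24224 of 24228 genes (99.98%, tolerance 0.1%), so RefSeq coordinates, names and promoter sequences were used.

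Groups came from titles and labels, and mock samples had been given water. The 31 members, the gene lists and the motifs were chosen with earlier results of these data known. Genes passing edgeR's filterByExpr (minimum count 10; 19652 genes holding 99.984% of counts) were tested on the deposited counts with edgeR 4.0.16's quasi-likelihood test in R 4.3.3, with TMM scaling, 1 mean per group and all 12 libraries; p-values were adjusted by Benjamini-Hochberg over all tested genes and called below 0.05. Steps were tested on simulated data. CPM are counts per 1000000 of the TMM-scaled library total. Members named with values in every library were the one of each role with the lowest adjusted p in wild type, the most abundant one, the regulators and the BIP genes; from each further list at most 2 called genes per direction, those with the lowest adjusted p, were named. Alternatives were DESeq2 1.42.0, limma-voom 3.58.1, RLE, upper quartile and total scaling, other filters, a fit of only the compared groups, a replicate block, other pseudocounts for PAD4, and leaving out each library. The standard error of a log2 difference was its absolute value divided by the square root of the test's F statistic. That test draws its spread from all 12 libraries and shares information between genes. Intervals and standard errors cover the spread between these libraries only.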

Additional observations from a re-analysis of the deposited data

Results flagged for a closer look

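The response to 2'cADPR differed between pad4 and wild type for 30 of the 31 genes, by the interaction term of the edgeR model (adjusted p under 0.05 over all tested genes), and these are the values. As log2 differences of the responses, pad4 minus wild type, the BIP system had -1.17 for BIP1, -1.60 for BIP2, -1.85 for BIP3, -1.61 for ERDJ3A, -1.57 for ERDJ3B, -1.29 for P58IPK and -1.15 for SDF2. The HSP90 gene SHD had -1.04. Lectin chaperones and the glycoprotein check had -1.01 for CRT1a, -1.06 for CRT1b, -1.30 for CRT3, -1.22 for CNX1, -1.05 for AT5G07340 and -0.88 for EBS1. Disulfide-forming enzymes had -1.36 for PDIL1-1, -1.95 for PDIL1-2, -1.24 for PDIL2-1, -1.43 for PDIL2-2, -1.21 for PDIL2-3 and -1.49 for ERO1. Translocon and export genes had -0.99 for AT2G34250, -0.55 for SEC61 BETA and -0.61 for SAR1B, and oligosaccharyltransferase genes -0.53 for DAD1, -0.74 for STT3A, -0.47 for STT3B and -0.60 for DGL1. The regulators had -1.93 for BZIP60, -1.46 for BZIP28 and -1.11 for IRE1A. A negative value means that the log2 change was smaller in pad4 than in wild type. The interaction was also called lower for 28.2% of all tested genes.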

How the results depend on the processing

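Library totals, RLE and upper quartile scaling, other filters, DESeq2, limma-voom, a fit of only the compared groups, a replicate block and leaving out each library were set against TMM and edgeR. Counting each of the 31 members, called or not, under each alternative, 649 of 651 values kept direction and side of the threshold in wild type for 2'cADPR against water. So did 645 of 651 for pad4 against wild type after water, 647 of 651 after 2'cADPR and 619 of 620 for the interaction, and all changed values but 1 were those of IRE1B. In 4 of the 5 comparisons upper quartile scaling moved the median of all tested genes by more than any other choice tried, and in 3 of them by over 0.1, to -0.16 in wild type, 0.15 for the interaction and 0.24 for pad4 against wild type after 2'cADPR, where TMM gave -0.015, 0.010 and 0.021. The members' medians moved with it, to 1.06 in wild type, -1.03 for the interaction and -1.84 for pad4 against wild type after 2'cADPR, and 16 rather than 24 members rose at least 2-fold in wild type. With it the share of higher genes among all calls was 41.6% in wild type against 50.04% with TMM, 60.5% against 51.1% for the interaction and 60.3% against 50.4% for pad4 against wild type after 2'cADPR.

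Leaving out libraries gave 30 to 31 risen members in wild type (median 1.12 to 1.29) and 0 in pad4 (median 0.038 to 0.081). It gave 30 to 31 lower members for the interaction (median -1.29 to -1.10), 29 to 30 for pad4 against wild type after water (median -0.97 to -0.83) and 30 to 31 after 2'cADPR (median -2.11 to -2.03). In pad4, DESeq2 called 29 of all genes for 2'cADPR against water and edgeR 1, none of them a member. The interaction median of -1.29 came without the first water library of wild type. For IRE1B, pad4 against wild type after water was near 0 and turned positive with RLE (0.00073), upper quartile scaling (0.048), library totals (0.024), DESeq2 (0.00049) and without the first water library of pad4 (0.029), and ran from -0.10 to 0.029 over all left-out libraries. IRE1B after 2'cADPR was not called with upper quartile scaling (-0.088), library totals (-0.24), or without the second treated library of wild type (-0.18) or of pad4 (-0.23).

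Same-numbered libraries showed little shared deviation, with correlations between -0.108 and 0.138, above 0.1 in 2 of 12 pairs. Differently numbered libraries ran from -0.200 to 0.234, so these values cannot show whether the samples were paired. The replicate block gave 31 risen members in wild type (median 1.2), 30 lower for the interaction (median -1.18), 30 lower in pad4 after water (median -0.91) and 31 after 2'cADPR (median -2.06). The smallest members by count, BIP3, ERO1 and ERDJ3A in pad4, have the widest errors, up to 0.35 on the log2 scale for BIP3 in pad4. The causes of these shifts were not tested.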
